A study of Mus musculus with 2 samples.

Results

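The 10 genes described here encode secreted antimicrobial proteins of the gut lining, proteins of the acute phase response and the receptor that carries IgA across the epithelium. They were chosen by gene symbol, with earlier results of these data known, and every probe set with a single matching symbol was taken. Of the 10 genes, 9 were represented, by 12 of the 15279 probe sets and among 8721 named genes, and Ang4 was not analysed here. The samples were colon epithelial cells from C57BL/6 mice, an inbred strain, 7 weeks old. The cells had been incubated with PBS, which is buffered saline, or with MIF, read here as the cytokine macrophage migration inhibitory factor. RNA of each incubation was measured on 1 Affymetrix array, so there are no replicates, no test between the incubations was possible and every difference below is that between these 2 arrays. Neither the number of animals nor the dose or time of incubation was given in the sources used here.

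The colon lining keeps bacteria at a distance with a mucus layer and with proteins that bind, permeabilise or starve microbes. Reg3 lectins and lysozyme act on the bacterial cell wall, secreted phospholipase A2 on bacterial membranes, and lipocalin 2 binds siderophores, the iron carriers of bacteria. Serum amyloid A proteins rise in the acute phase response, and Reg3 genes, Lcn2 and Saa3 are known in mice as targets of cytokine signalling through STAT3, NF-kB or C/EBP factors. The polymeric immunoglobulin receptor takes up dimeric IgA at the basal side of the cell and releases it into the lumen.

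The promoters of 3 pairs of members are shown for description, and no comparison of signals below uses these sequences. The sequences are the 250 bases before the RefSeq start of each gene, 5′ to 3′, in the build GRCm38.p6. For Reg3b and Reg3g, members of a cluster of lectin genes with the strongest signals of the set, capitals mark the longest stretch shared by both.
Reg3b (chr6:78370635-78370884, plus strand): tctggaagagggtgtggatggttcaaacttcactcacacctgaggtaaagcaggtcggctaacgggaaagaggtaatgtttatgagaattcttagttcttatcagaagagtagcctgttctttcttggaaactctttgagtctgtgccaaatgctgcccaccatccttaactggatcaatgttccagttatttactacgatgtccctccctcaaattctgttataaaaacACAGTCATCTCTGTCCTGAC
Reg3g (chr6:78468875-78469124, minus strand): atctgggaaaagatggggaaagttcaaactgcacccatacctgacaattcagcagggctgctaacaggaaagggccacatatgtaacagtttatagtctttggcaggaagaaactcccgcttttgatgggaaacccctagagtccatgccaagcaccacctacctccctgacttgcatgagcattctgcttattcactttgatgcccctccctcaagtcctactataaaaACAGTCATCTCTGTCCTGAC
For the lysozyme paralogs Lyz1 and Lyz2, which lie next to each other, capitals again mark the longest shared stretch.
Lyz1 (chr10:117292869-117293118, minus strand): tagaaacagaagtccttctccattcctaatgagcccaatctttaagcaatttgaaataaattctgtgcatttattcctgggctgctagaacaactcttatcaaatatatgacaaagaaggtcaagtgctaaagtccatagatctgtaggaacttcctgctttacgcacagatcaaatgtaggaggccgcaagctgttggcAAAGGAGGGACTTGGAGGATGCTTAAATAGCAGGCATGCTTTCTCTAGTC
Lyz2 (chr10:117282273-117282522, minus strand): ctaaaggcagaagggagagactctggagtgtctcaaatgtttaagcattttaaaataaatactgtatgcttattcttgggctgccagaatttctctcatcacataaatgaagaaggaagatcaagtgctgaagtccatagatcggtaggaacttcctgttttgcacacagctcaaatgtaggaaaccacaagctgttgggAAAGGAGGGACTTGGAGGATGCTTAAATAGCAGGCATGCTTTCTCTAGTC
For Saa3, the member with the largest difference towards a lower signal, and Lcn2, whose signals were under the floor described below, capitals mark the C/EBP motif TTGCNNAA, found on either strand.
Saa3 (chr7:46715677-46715926, minus strand): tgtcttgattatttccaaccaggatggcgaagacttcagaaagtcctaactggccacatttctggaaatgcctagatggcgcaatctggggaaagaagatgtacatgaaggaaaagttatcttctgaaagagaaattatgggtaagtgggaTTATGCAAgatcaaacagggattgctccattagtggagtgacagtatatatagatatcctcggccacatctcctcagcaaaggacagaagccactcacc
Lcn2 (chr2:32387740-32387989, minus strand): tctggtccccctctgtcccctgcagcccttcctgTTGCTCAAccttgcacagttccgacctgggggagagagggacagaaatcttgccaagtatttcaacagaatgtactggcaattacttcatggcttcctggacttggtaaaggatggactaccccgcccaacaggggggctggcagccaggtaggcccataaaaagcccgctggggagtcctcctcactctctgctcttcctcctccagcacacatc
The Reg3b and Reg3g promoters shared 68.9% of 257 aligned positions and a run of 20 bases directly before the start. Those of Lyz1 and Lyz2 shared 78.8% of 260 aligned positions and a run of 50 bases directly before the start. Both runs reach the edge of the window, and whether they go on past the start was not examined. Promoters of 8 members were in the RefSeq table. The C/EBP motif TTGCNNAA lay in 3 of these 8 (Saa3, Lcn2 and Lyz1), and in 9.56% of all 32851 promoters of the same length. The TATA box TATAAA lay in 2 of 8, Reg3b and Reg3g, and in 12.4% of all. A STAT motif, TTCNNNGAA, lay in Reg3b and Ang4 and in 7.02% of all. Both strands were searched, and no match of one motif overlapped that of another in these promoters. These matches describe letters in a window and not binding.

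Most of the set differed by less than 1.2-fold between the arrays, as did 5072 of all 5837 assessed genes. Differences are given as log2 signal on the MIF array minus that on the PBS array. Signals under a floor of 232, the 40th percentile of all signals, were raised to it. Of the 9 genes, 7 lay above the floor on both arrays, Lyz2 on the MIF array alone and Lcn2 on neither, which left 8 assessed genes. Lyz1 was the only member at least 1.2-fold higher on the MIF array, at 1.45-fold, and Saa3 was the only member at least 1.2-fold lower, at 1.37-fold. After median centring, Pla2g2a also passed 1.2-fold in the lower direction, making 1 higher and 2 lower, beside 5.14% and 8.90% of all assessed genes. The Lyz1 call was lost without probe sets that may hybridise with related transcripts and under a floor set at the 60th percentile, and the mean of its probe sets gave 0.27. With the floor at the 20th percentile or no floor, Lyz2 passed 1.2-fold as well, making 2 higher. The shares of all assessed genes were then 10.2% and 15.6%. With the floor of 232 and the columns as deposited, 6.82% of all 5837 assessed genes were at least 1.2-fold higher and 6.29% at least 1.2-fold lower. No member reached 1.5-fold, as 0.634% of all assessed genes did in the higher and 0.463% in the lower direction. The median difference of the 8 members was -0.12, with 3 higher and 5 lower, and that of all assessed genes was -0.01. The SD of the difference among probe sets of the same gene, over 1800 genes, was 0.15 and serves here as a rough yardstick (the probe set SD). It is pooled over all signals above the floor and holds no error shared by a whole array. The SD over all probe sets fell from 0.21 in the band from the floor to 500 to 0.07 at 10000 or more. The spread between cell preparations is not known.

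**Figure D1:**
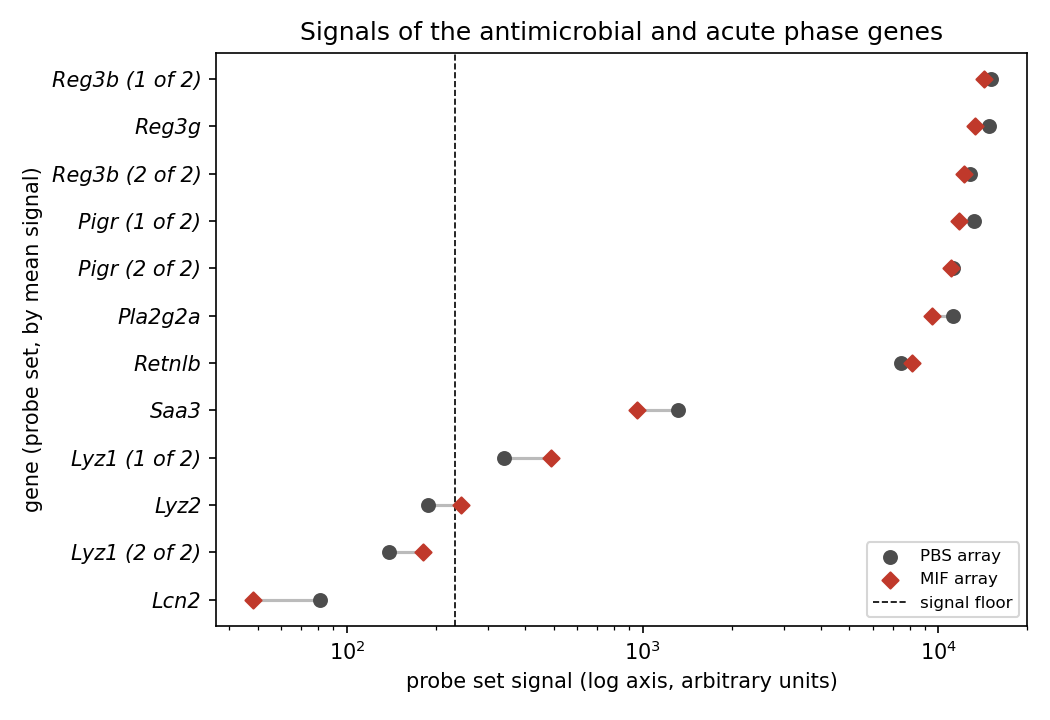
Signal of each of the 12 member probe sets (log axis, arbitrary units) on the PBS array (grey circles) and the MIF array (red diamonds), with the signal floor of 232 as a dashed line and the probe sets of a gene numbered by mean signal. Reg3b, Reg3g, Pigr, Pla2g2a and Retnlb lie at the upper end on both arrays, and the lysozyme and Lcn2 probe sets lie near or under the floor.

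The lectin genes Reg3b and Reg3g had nearly the strongest signals of the table. Their products are C-type lectins, of which the Reg3g product binds peptidoglycan and kills Gram-positive bacteria in the mouse intestine. The brighter Reg3b probe set, of a type that may hybridise with related transcripts, had a signal of 15015 with PBS and 14298 with MIF. On these arrays 3 and 4 probe sets were brighter. The second Reg3b probe set, not of that type, was at 12782 and 12215, with 36 and 35 brighter. Both gave a difference of -0.07, less than the probe set SD. Reg3g was at 14881 with PBS and 13254 with MIF, a difference of -0.17 or 1.12-fold lower, just above that SD. Signals of different probe sets depend on their probes and do not rank the transcripts of different genes.

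The remaining genes of this lectin cluster had far weaker signals. The RefSeq gene order on chromosome 6 runs Reg3b, Reg3d, Reg3a, Reg2, Reg1 and, beyond 1 other gene, Reg3g. Reg3a was at 286 with PBS and 314 with MIF, just above the floor. Reg3d, at 69.4 and 79.9, and Reg2, at 60.3 and 55.6, were under it on both arrays. The bright signals of Reg3b and Reg3g were thus those of the outer genes of the cluster, while Reg1 was not analysed here.

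Pla2g2a encodes the group IIA secreted phospholipase A2, a bactericidal enzyme of crypt cells. C57BL/6 mice are known to carry a frameshift in this gene and to lack the active enzyme, so the signal bears on the transcript alone. It was 11218 with PBS and 9512 with MIF, a difference of -0.24 or 1.18-fold lower. The related secreted phospholipase genes Pla2g10, at 2156 and 2486, and Pla2g5, at 1110 and 1066, differed by 0.21 and -0.06. None of these 3 differences reached 1.2-fold.

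The lower values at the bright end of the set were set beside those of other bright probe sets. Of the 89 probe sets with a mean signal of at least 10000, 77 were lower on the MIF array and 12 higher, and their median was -0.07, with an SD of 0.07. Both Reg3b probe sets lay at this median. Reg3g had a lower value than 77 of them, and the brighter Pigr probe set than 78. Pla2g2a had the lowest value of all 89, and none of the 89 reached 1.2-fold in either direction. The highest signals of any probe set were 15440 with PBS and 15364 with MIF. Whatever moved the bright probe sets together was not tested. With the trend with signal removed, Pla2g2a differed by -0.16, Reg3g by -0.08 and Reg3b by 0.02, so that Reg3b changed sign.

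**Figure D2:**
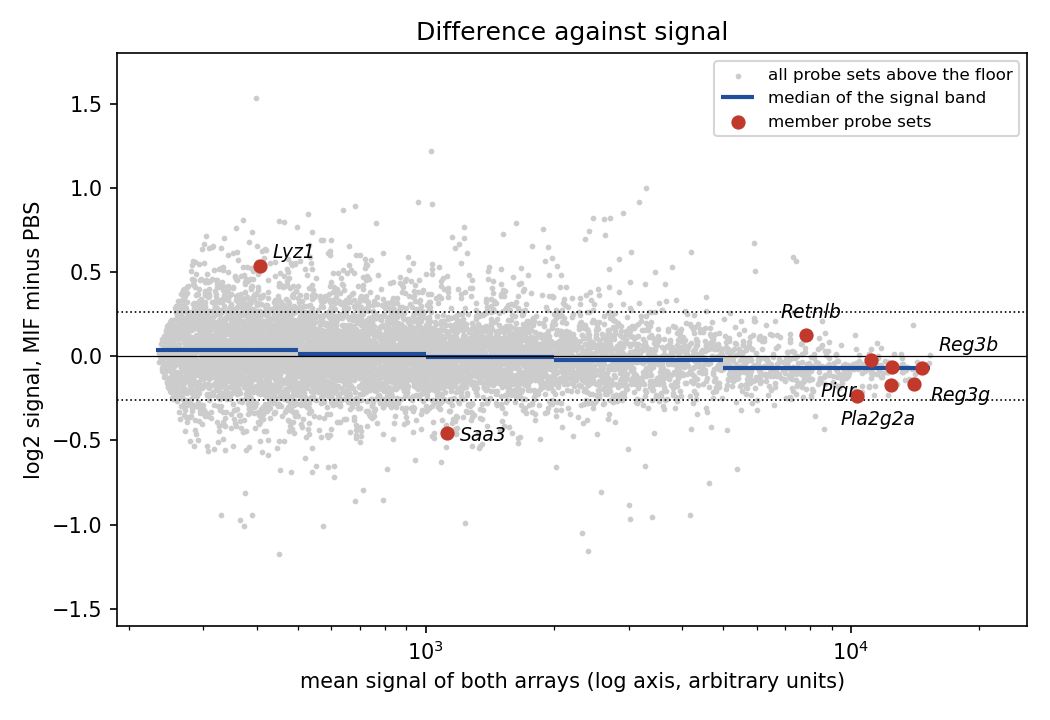
Difference in log2 signal, MIF minus PBS, against the mean signal of both arrays (log axis) for each probe set that exceeded the floor on both arrays (grey), with the member probe sets in red, the median of each signal band as a blue line and 1.2-fold as dotted lines. Pla2g2a (-0.24) lies lowest among the probe sets above 10000, Saa3 (-0.45) and Lyz1 (0.53) lie outside 1.2-fold, and Retnlb (0.13) lies above the median of its band.

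Lysozyme probe sets all read higher on the MIF array. Lyz1 encodes the lysozyme of Paneth cells and Lyz2 that of macrophages and neutrophils in the mouse. The brighter Lyz1 probe set was at 338 with PBS and 490 with MIF, a difference of 0.53. In the band of mean signals from the floor to 500, 38 of 2648 probe sets had a higher value. The second Lyz1 probe set, at 139 and 181, was under the floor on both arrays. Both Lyz1 probe sets are of a type that may hybridise with related transcripts, so the signals of Lyz1 and Lyz2 may not be separate. Lyz2 was at 188 on the PBS array, under the floor, and at 243 on the MIF array, hence at least 1.05-fold higher. Before the floor, the second Lyz1 probe set and Lyz2 differed by 0.38 and 0.37.

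Because Lyz2 marks myeloid cells, the other markers of macrophages and monocytes were examined beside it. Of 19 listed genes, 13 were in the table and 10 lay under the floor on both arrays, among them the defining markers Csf1r (88 and 126), Adgre1 (64 and 40) and Itgam (34 and 33). C1qa (149 and 199) was the brightest of the 10, whose values went in both directions. The assessed markers other than Lyz2 were Ctss, a lysosomal protease, at 2807 and 3113, and Cd14, a co-receptor for lipopolysaccharide, at 1318 and 1307. The summed signal of the 13 genes was 5013 with PBS and 5430 with MIF, most of it from Ctss and Cd14. The part of macrophages and monocytes in the lysozyme difference was not tested. In mixed RNA of this kind, fewer cells of a type and less RNA per cell cannot be told apart.

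Of the Paneth cell markers that are no members, the metalloprotease gene Mmp7 was under the floor, at 177 and 162, and the lectin gene Itln1 was at 370 and 352. The receptor kinase gene Kit, which marks deep crypt secretory cells of the colon, was under the floor on the PBS array and at least 1.10-fold higher on the MIF array (167 and 254). The whole list, with Lyz1 and Pla2g2a in it, had 8 assessed genes of 9 in the table and a median of 0.05. Lyz1 and Pla2g2a, both known from Paneth cells of the mouse small intestine, differed in opposite directions. Reg4, at 8622 and 9152, and Spink4, at 8721 and 8901, which mark secretory cells of the colon, differed by 0.09 and 0.03.

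Retnlb encodes resistin-like molecule beta, a goblet cell protein that binds bacteria. Its signal was 7476 with PBS and 8168 with MIF, 1.09-fold higher, with a difference of 0.13 that was less than the probe set SD. In its band of mean signals from 5000 to 10000, where the median was -0.07, 20 of 373 probe sets had a higher value. Most goblet cell markers, Retnlb among them, had values in the same direction. Of 16 assessed, 14 were higher and 7 at least 1.2-fold higher, with a median of 0.20 and summed signals of 67039 and 76113. Among all 5837 assessed genes, 2728 were higher and 6.82% at least 1.2-fold higher, with a median of -0.01. After median centring 11 goblet markers were higher, 5 lower and 7 still at least 1.2-fold higher. The brightest goblet markers Zg16, Spink4 and Tff3 differed by 0.01, 0.03 and -0.0059. The largest differences were those of St3gal6 and Ccl6, 1.70-fold and 1.69-fold higher on their brighter probe sets. The part of the goblet cells in the Retnlb value was not tested.

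Saa3 encodes serum amyloid A3, which is made outside the liver in the mouse and rises in inflamed epithelium. Its signal was 1315 with PBS and 960 with MIF, a difference of -0.45, larger than the probe set SD. In the band of mean signals from 1000 to 2000, 19 of 1582 probe sets had a lower value, and 2.86% of all assessed genes lay as far from 0 in either direction. It rests on a single probe set.

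The neighbouring serum amyloid A genes on chromosome 7 differed less. Saa1 was at 8828 and 8051 on its brighter probe set, a difference of -0.13, and at 8069 and 7192 on the other, a difference of -0.17. Saa2 was at 516 and 477, a difference of -0.11, on a probe set that may hybridise with related transcripts, as may the weaker one of Saa1. All 4 serum amyloid A probe sets were lower on the MIF array, as deposited and under each of 3 other scalings, and only that of Saa3 reached 1.2-fold. Saa1, Saa2 and Saa3 are related in sequence, so these signals may share RNA.

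Lcn2 encodes lipocalin 2, which is widely used as a marker of intestinal inflammation. Its probe set was at 80.8 with PBS and 48.1 with MIF, under the floor on both, so no difference was assessed. Slc22a17, which encodes a lipocalin 2 receptor, was also under the floor, at 35.3 and 57.5. Lcn2 was the only gene in the table of 16 listed neutrophil markers.

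Pigr, the polymeric immunoglobulin receptor gene, had strong signals that differed little. The brighter probe set was at 13155 with PBS and 11706 with MIF, a difference of -0.17. The other was at 11241 and 11053, a difference of -0.02. The probe sets of this gene thus differed from each other by nearly as much as the arrays did on the brighter probe set.

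Genes around Pigr in IgA transport were examined from a list of 22, of which 17 were in the table and 12 assessed. Of these, 4 were higher and 8 lower, with a median of -0.05. Rab17, a GTPase of transcytosis in polarised epithelial cells, was at 820 with PBS and 601 with MIF, 1.36-fold lower, while its second probe set was under the floor. Ccl28, a chemokine that draws IgA-producing plasma cells, was at 516 and 633, 1.23-fold higher, and a second probe set gave a difference of 0.16. Yes1, a Src family kinase, and Fcgrt, the neonatal Fc receptor gene, differed by 0.24 and -0.19. Rab17 and Ccl28 were the genes of this list beyond 1.2-fold, and after median centring only Rab17 was. Of all 5837 assessed genes, as deposited, 6.82% were at least 1.2-fold higher and 6.29% at least 1.2-fold lower. The IgA joining chain gene Jchain was under the floor, at 23.4 and 6.86, as was Ighm, at 37.3 and 35.1.

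Other antimicrobial effectors were examined as a list. Of 55 listed genes, 23 were in the table and 15 were assessed, with 7 higher, 8 lower and a median of -0.04, which turned to 0.02 after quantile normalization and to 0.05 with the trend with signal removed. Mptx1, a mucosal pentraxin of the colon, was at 2447 with PBS and 3755 with MIF, 1.53-fold higher. Wfdc2, a secreted protein of the whey acidic protein family, was at 2604 and 3232, 1.24-fold higher. These 2 were the genes at least 1.2-fold higher, beside 6.82% of all 5837 assessed genes, and Mptx1 reached 1.5-fold, beside 0.634%. None was at least 1.2-fold lower, beside 6.29%, so the other 13 genes lay within 1.2-fold. Lgals3, a galectin gene, and Ang, a ribonuclease gene related to Ang4, were the lowest, at -0.18 and -0.11. Lypd8, which encodes a protein that binds flagella, was at 14808 and 14365, and Dmbt1, which encodes a scavenger receptor that agglutinates bacteria, was at 14670 and 13654. Both were within the bright range of Reg3b and Reg3g and differed by -0.04 and -0.10.

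Of 31 other acute phase genes, 12 were in the table and 8 assessed, with 5 higher, 3 lower and a median of 0.09. Ttr, whose product transthyretin carries thyroxine and falls in the acute phase response, was at 857 and 1250, 1.46-fold higher, and its other probe sets differed by 0.74 and 0.51. Il1rn, the interleukin 1 receptor antagonist gene, was at 336 and 429, 1.28-fold higher, and a second probe set was higher by at least 0.30. Ttr and Il1rn were the 2 genes of the 8 at least 1.2-fold higher, beside 6.82% of all 5837 assessed genes. None was at least 1.2-fold lower, beside 6.29%. The lowest values were those of Saa1 and Saa2, and the other 6 genes of the list had values from -0.05 to 0.54. Hamp, the hepcidin gene, and Alb, the albumin gene, were under the floor on both arrays.

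**Figure D3:**
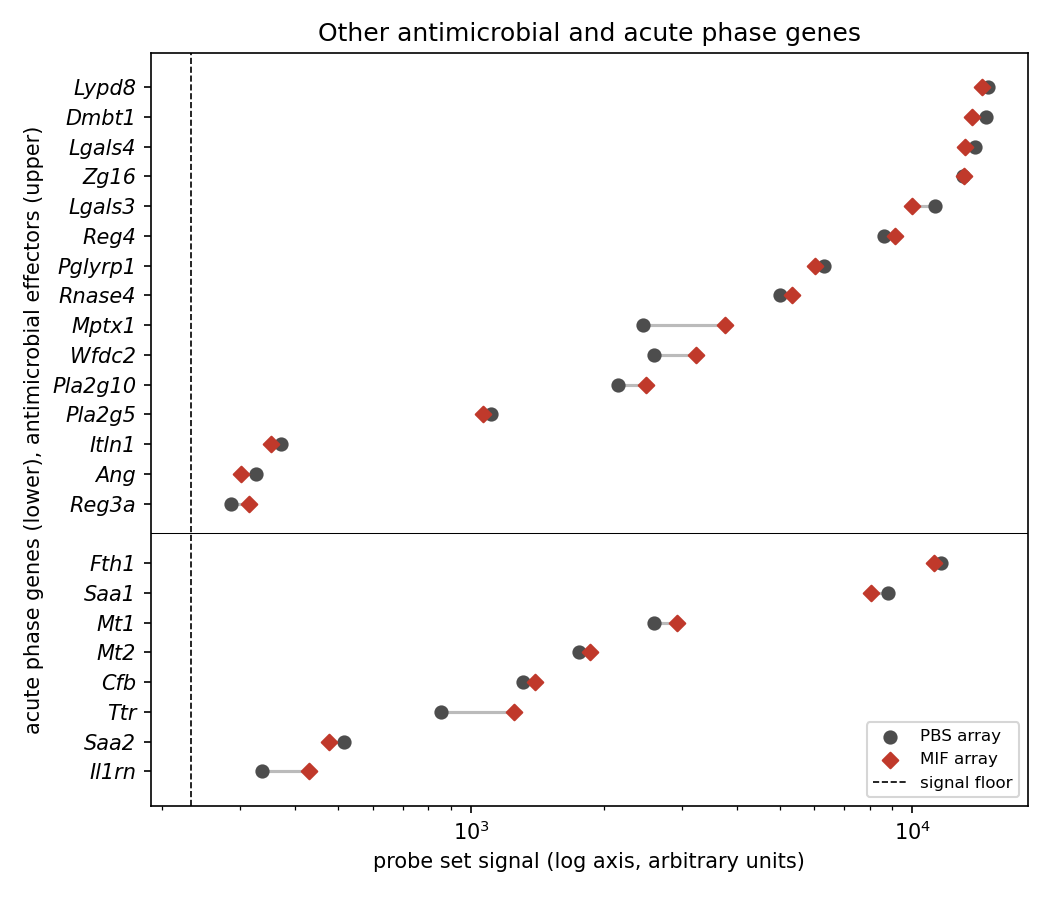
Signals on the PBS array (grey circles) and the MIF array (red diamonds) of the assessed genes of the antimicrobial effector list (upper, 15 genes) and of the acute phase list (lower, 8 genes), on a log axis in arbitrary units, with the floor of 232 dashed. Mptx1, Wfdc2, Ttr and Il1rn show the widest gaps, each with the higher signal on the MIF array.

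Genes listed as upstream of the members, from cytokine receptors to transcription factors, mostly lay within 1.2-fold between the arrays, as did 5072 of all 5837 assessed genes. Of 55 listed, 44 were in the table and 33 were assessed, 16 higher and 17 lower, with a median of -0.00052 that changed sign with the scaling. Fut2 was the only gene beyond 1.2-fold, at 457 and 572, 1.25-fold higher, beside 6.82% of all assessed genes at least 1.2-fold higher. It encodes a fucosyltransferase and is itself a target of interleukin 22, not a receptor or transcription factor. Under each of the 3 other scalings, 1 gene was also at least 1.2-fold lower, beside 6.92% to 8.90% of all assessed genes. Stat3, the main factor downstream of interleukin 22 and interleukin 6, was at 1641 and 1640, and Nfkbiz, a co-activator of NF-kB target genes, at 1277 and 1273. These were the smallest differences of the list, each on the brighter of 2 probe sets. Others differed more, such as Il17rc (-0.20) and Tcf7l2 (0.23). Of the 44 genes, 11 were under the floor on both arrays and not assessed, among them the receptor genes Il6st, Il17ra and Tlr4. Relb, an NF-kB subunit gene, and Cebpb, which encodes a C/EBP factor, were the lowest, at -0.24 and -0.20. Atoh1, the transcription factor gene of secretory cell fate, was second to Fut2 at 0.26. The signals of these genes say nothing of the activity of their products.

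**Figure D4:**
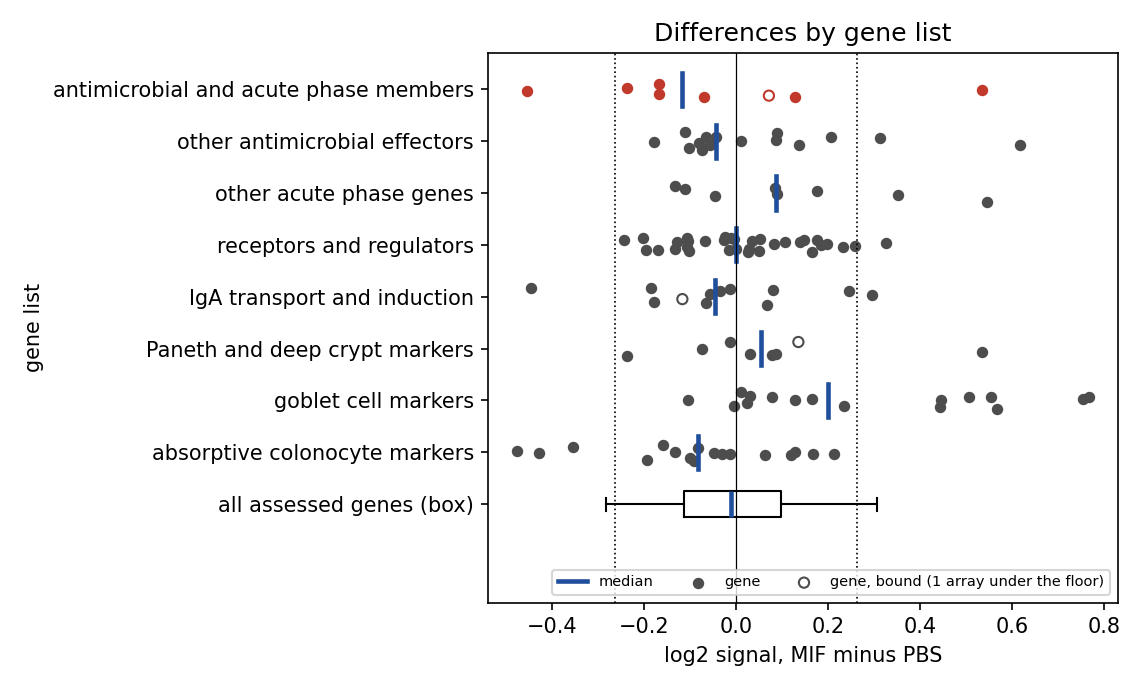
Difference in log2 signal, MIF minus PBS, of each assessed gene (points, open where only a bound is known) in 8 gene lists, with the median of each list as a blue bar, and of all 5837 assessed genes as a box (quartiles, whiskers at the 5th and 95th percentiles), with 1.2-fold as dotted lines. The members (red) have a median of -0.12, and the goblet cell list has the highest median of the 8, 0.20.

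Markers of cell types were summed to describe the 2 preparations. All 17 general epithelial markers were in the table and 16 were assessed. As deposited all of these lay within 1.2-fold, as did 5072 of all 5837 assessed genes, and under each other scaling 1 marker lay beyond it. The keratin gene Krt8 was at 14619 and 13874, the galectin gene Lgals4 at 13878 and 13124, and the mucin gene Muc13 at 11936 and 11097. A second Muc13 probe set went the other way, at 4017 and 4488, a difference of 0.16. Absorptive colonocyte markers had a median of -0.08, with 12 of 17 lower and 3 at least 1.2-fold lower. Among all 5837 assessed genes, 3109 were lower and 6.29% at least 1.2-fold lower. Of the 373 probe sets with a mean signal from 5000 to 10000, 283 were lower. The median of the colonocyte markers turned to 0.0059 after quantile normalization. The brightest were Car1, a carbonic anhydrase, at 10837 and 10487, Mal, a protein of apical transport, at 9323 and 7294, and Saa1. Fibroblast markers had summed signals of 1402 with PBS and 3001 with MIF, with 13 of 16 under the floor on both. The proteoglycan gene Dcn was at 235 and 678, 2.89-fold higher, and the collagen gene Col3a1 at 227 and 554, at least 2.39-fold higher, both larger differences than that of any member. The intermediate filament gene Vim was at 175 and 253, at least 1.09-fold higher. Summed signals of T and NK cell markers were 1828 and 1071, with the granzyme genes Gzma (813 and 403) and Gzmb (541 and 282) as the assessed ones of 9. Ptprc, the leukocyte antigen CD45, was under the floor at 173 and 137. Of 5 markers of B and plasma cells, 4 were under the floor, among them Prdm1 (76.6 and 52.5), while Sdc1, a proteoglycan that epithelial cells also express, was at 2614 and 2657. The other Sdc1 probe sets were higher on the MIF array by 0.08 to 0.34. The part of these cells in the values of the members was not tested.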

How the data were processed

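The deposited values are the authors' signal intensity of each Affymetrix probe set on a linear scale, as read from the values. Labels' protocols name Trizol extraction and biotinylated cRNA, and they do not say how probes were summarised or arrays scaled. Column medians were 337 (PBS) and 346 (MIF), closer than the limit of 0.1 on the log2 scale, so the columns were not rescaled.

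From the 15340 probe sets, 61 controls were left out. GEO's platform annotation, which can be old, gave 14049 probe sets 1 symbol, 490 several and 740 none, and the last 2 kinds were left unnamed. Symbols were updated through Entrez IDs. For each gene the probe set of highest mean log2 signal was used. Signals were raised to the floor, and genes under it on both arrays (2884) were not assessed. With 1 array per group no test was made, and precision is limited by the number of arrays. Steps were tested on simulated data with less spread than the probe set SD. Only decreases larger than 1.2-fold were planted, in genes well above the floor. That run does not bear on signals near the floor or on differences close to 1.2-fold.

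The members and lists were chosen with earlier results of these data known. Named were all members, the 2 highest and 2 lowest genes of each companion list with any at 1.5-fold, and the 3 brightest markers per cell type. Lypd8, Dmbt1, Pla2g5, Pla2g10, Itln1, Mmp7, Kit, Reg2, Reg3a, Reg3d, Stat3, Nfkbiz, Slc22a17, Hamp, Alb, Jchain, Retnla, Csf1r, Adgre1 and Itgam were chosen after their values were seen. So were Il17rc, Tcf7l2, Il6st, Il17ra, Tlr4, C1qa, St3gal6 and Ccl6. Python 3.11.15 was used with pandas 2.3.3, numpy 2.4.6, matplotlib 3.10.9 and statsmodels 0.14.6.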

Additional observations from a re-analysis of the deposited data

How the results depend on the processing

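The median difference of the members stayed below 0 under each of the 8 alternatives run, from -0.17 to -0.03, the latter with the loess trend (span 0.3) removed. The median over all assessed genes ranged from -0.05 to 0.0039 under the same alternatives. With the loess trend removed it was -0.01, and 4 members were higher and 4 lower. The count of members at least 1.2-fold higher was 2 with the floor at the 20th percentile or no floor, where Lyz2 had a difference of 0.37. It was 0 with the floor at the 60th percentile (498), where Lyz1 and Lyz2 were not assessed, and 0 without probe sets ending in _x_at or _s_at, which removes Lyz1. Of all assessed genes, 10.2%, 15.6%, 4.94% and 7.01% were at least 1.2-fold higher under these settings, in that order. The count at least 1.2-fold lower was 2 with median centring, where Pla2g2a reached -0.28, and 2 with no floor, where Lcn2 had -0.75 from signals under the floor. The shares of all assessed genes were 8.90% and 10.3%. At 1.5-fold both counts were 0. With the mean of its probe sets Lyz1 differed by 0.27. Saa3 ranged from -0.49 to -0.45. Reg3b, never beyond 1.2-fold, ranged from -0.11 to 0.02. Pigr ranged from -0.21 to -0.08, Reg3g from -0.21 to -0.08 and Retnlb from 0.09 to 0.20. No paired analysis was possible because each group has 1 array. Signals near the floor limit what can be said of lysozyme and Lcn2.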

Other observations

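Retnla, the gene of resistin-like molecule alpha and a relative of Retnlb, had a signal of 69.5 with PBS and 205 with MIF. Both lie under the floor, so its difference was not assessed.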
